A study of Mus musculus with 10 samples.

Results

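The Notch genes described here are 4 receptors (Notch1, Notch2, Notch3 and Notch4), 3 ligands (Jag1, Jag2 and Dll1) and 3 target genes (Hes1, Hey1 and Heyl). They were chosen by symbol and by no measured threshold, but with earlier results of these data known. All 10 were found among the 24000 genes of the deposited tables. RNA was sequenced from mammary epithelial cells sorted by flow cytometry from female mice, wild type (WT) or knockout (KO) for Bptf, which encodes a large subunit of NURF, a complex that moves nucleosomes. Tamoxifen, in total 15 mg per kg, had been given to the mice of both genotypes, the WT controls included, ahead of sorting. There were 5 groups with 2 libraries each, 10 in all, namely WT luminal, KO luminal, WT myoepithelial (basal), KO myoepithelial (basal) and KO Bsecs, a population that the labels do not spell out and name for the knockout alone. The agent that deletes Bptf, the alleles, the ages of the mice and the sorting gates were not given in the available labels, and nothing says whether the 2 libraries of a group came from separate mice.

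Notch is a receptor that is switched on by contact between neighbouring cells. A Jagged or Delta ligand on one cell binds the receptor on the next, and the receptor is then cut, first by an ADAM protease and then inside the membrane by gamma-secretase. The freed intracellular domain enters the nucleus, binds the DNA-binding protein RBPJ and turns on genes for Hes and Hey repressors. In the mammary gland an inner luminal layer lies on a basal layer of myoepithelial cells, and Notch activity in the luminal layer is known to favour luminal over basal fate.

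The promoters of 4 members are shown because these genes lay far apart between the luminal and basal layers, Notch1 and Notch3 on the luminal side and Jag1 and Dll1 on the basal side. Each is the 250 bases before a transcription start in RefSeq, build GRCm38.p6, all on the minus strand and written 5′ to 3′. The windows lie at chr2:26503823-26504072 (Notch1), chr17:32166891-32167140 (Notch3), chr2:137116521-137116770 (Jag1) and chr17:15375824-15376073 (Dll1). Capitals mark GGGCGG or its reverse complement CCGCCC, the GC box bound by Sp1-type factors.
Notch1: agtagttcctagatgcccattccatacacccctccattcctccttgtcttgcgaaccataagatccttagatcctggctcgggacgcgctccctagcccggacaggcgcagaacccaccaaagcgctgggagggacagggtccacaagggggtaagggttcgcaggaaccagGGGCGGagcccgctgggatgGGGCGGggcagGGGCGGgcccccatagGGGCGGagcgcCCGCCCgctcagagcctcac
Notch3: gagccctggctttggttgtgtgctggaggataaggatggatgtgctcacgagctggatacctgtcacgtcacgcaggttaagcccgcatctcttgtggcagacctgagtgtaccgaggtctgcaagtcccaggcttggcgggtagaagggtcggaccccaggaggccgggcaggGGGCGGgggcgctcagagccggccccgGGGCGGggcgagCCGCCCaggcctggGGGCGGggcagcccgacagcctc
Jag1: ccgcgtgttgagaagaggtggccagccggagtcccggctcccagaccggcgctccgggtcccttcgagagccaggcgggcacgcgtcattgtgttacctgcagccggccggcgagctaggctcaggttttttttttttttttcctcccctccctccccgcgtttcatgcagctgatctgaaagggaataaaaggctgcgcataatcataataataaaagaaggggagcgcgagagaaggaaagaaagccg
Dll1: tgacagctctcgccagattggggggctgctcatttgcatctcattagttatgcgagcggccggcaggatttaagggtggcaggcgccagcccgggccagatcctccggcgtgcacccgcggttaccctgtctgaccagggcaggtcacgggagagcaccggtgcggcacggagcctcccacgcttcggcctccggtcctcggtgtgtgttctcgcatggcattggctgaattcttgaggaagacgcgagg
The Notch1 window held 5 GC boxes and the Notch3 window 4, while the Jag1 and Dll1 windows held 0. GGGCGG was searched only after the windows had been seen. Their GC content was 66% (Notch1), 68.8% (Notch3), 57.2% (Jag1) and 64% (Dll1), beside a median of 52.4% over all windows. Of the 32851 windows of this length in the RefSeq table, 32.7% held at least 1 GC box and 4.09% held 4 or more. Among the other members, Notch2 and Jag2 had 5 each and Notch4 and a further Dll1 start had 0. The core of the RBPJ motif, TGGGAA, searched on both strands, was found in 0 of the 8 windows of 7 members, against 21.6% of all windows. Those 7 are the receptors and ligands. The 3 targets Hes1, Hey1 and Heyl had no window, so no target promoter was searched. These matches describe letters in a window and no binding was measured.

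The deposited tables give 1 column of mean values per group, from which whole reads could be recovered. Whether such a column sums the pair of libraries or holds just 1 of them is not stated. The 5 distinct columns held 2036681 to 3840462 reads, of which the ribosomal RNA precursor Rn45s took 9.76% to 32.2%, the most in Bsecs. The 2 basal columns carry opposite genotype names in different tables, so they are called the smaller (2036681 reads) and the larger (2359861 reads) basal column, and a difference between them is not assigned to the genotype. The libraries titled KO luminal have a source label that names WT mice, so KO luminal below means the column with that name. Bptf was read in every column, with 420 to 1018 reads. Its level was 571 in WT luminal, 736 in KO luminal, 679 in Bsecs, 558 in the smaller basal and 750 in the larger basal column. Both columns named for the knockout, KO luminal and Bsecs, were thus not below WT luminal. Such counts per gene cannot test a deletion limited to part of it. Most defining markers matched the labelled cell types. In luminal columns 9 of 9 basal markers were called lower and 10 of 12 luminal markers higher than in basal columns. The shares over all genes were 5.26% lower and 7.69% higher. Elf5 and Esr1 were not called. Elf5 was higher in both luminal columns. Esr1 had levels of 320 in WT luminal, 434 in KO luminal, 947 in the smaller basal and 28.8 in the larger basal column. In Bsecs the basal markers split. By level, the basal keratins Krt5 (3307) and Krt14 (8944) were no lower than in either basal column. Krt17 (5007) lay between the smaller (7570) and the larger basal column (2043). Trp63 (100) lay below both, at 109 in the smaller and 375 in the larger. Cnn1 (4.21), a gene of contractile fibres, and the oxytocin receptor Oxtr (1.05) lay within the range of the luminal columns. Acta2 (144), Mylk (30.5) and Myh11 lay above both luminal columns and far below both basal columns. Of 9 basal markers 5 were called below basal columns (Acta2, Cnn1, Myh11, Mylk and Oxtr), beside 1.68% of all genes. Above luminal columns 5 were called (Krt14, Krt17, Krt5, Mylk and Trp63), beside 2.44% of all genes. Of 12 luminal markers 7 were called above basal columns, beside 2.71% of all genes. Below luminal columns 4 were called (Krt18, Krt8, Ly6a and Prlr), beside 2.35% of all genes.

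Populations were compared by treating the 2 luminal columns and the 2 basal columns as replicates, with Bsecs as a single column assumed to vary like the others. The p-values therefore measure the spread between these columns, which includes genotype and may otherwise be technical. Most of that spread was borrowed from all genes together, with 32.2 prior degrees of freedom beside 2 residual ones. A small p-value is thus no measure of how closely the columns of a single gene matched. A level below is the reads of a column divided by its median-of-ratios size factor, and a called difference has a Benjamini-Hochberg adjusted p under 0.05 in edgeR's quasi-likelihood test. The SE beside a log2 difference is its absolute value divided by the square root of that test's F statistic. It was thus worked back from the test and is not a separate estimate of precision. Intervals of folds cover counting error only, at 95%. In bulk RNA, fewer cells of a type and less RNA per cell cannot be told apart. All 10 members passed the filter on low counts. Between luminal and basal columns 3 of them were higher and 2 lower in luminal columns, where 12.9% of the 12273 genes tested were called, 7.69% higher and 5.26% lower.

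**Figure D1:**
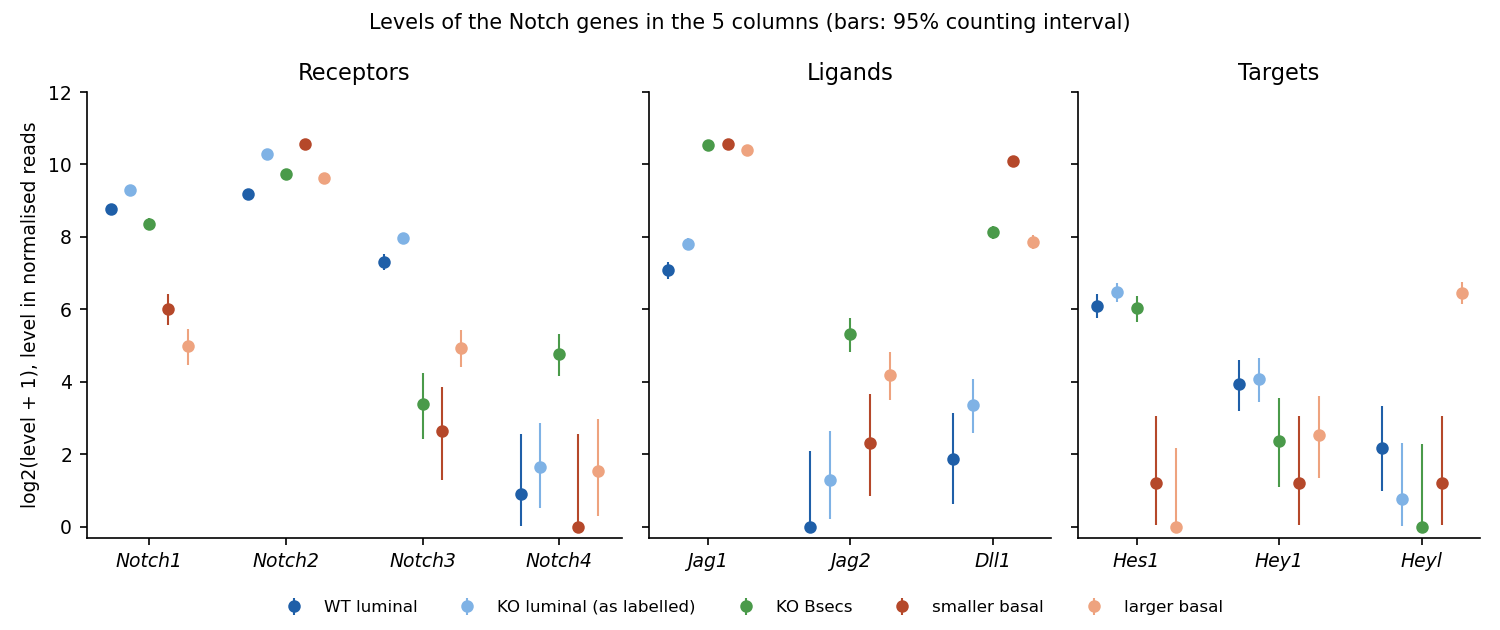
Levels of the 10 members in each of the 5 columns, as log2 of the level plus 1 on the vertical axis. Points are single columns and bars are 95% counting intervals. Notch1, Notch3 and Hes1 sit higher in both luminal columns than in both basal columns, and Jag1 and Dll1 sit lower.

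Among the receptors, Notch1 and Notch3 were higher in luminal cells and Notch2 was read at a high level everywhere. Notch1, a receptor known from luminal cells of the gland, had a level of 436 in WT luminal, 624 in KO luminal, 326 in Bsecs, 63.7 in the smaller basal and 30.8 in the larger basal column. The luminal columns and Bsecs were all far above both basal columns, with no overlap. Over pooled reads Notch1 was 12.1-fold higher in luminal than in basal columns (9.65 to 15.4), a log2 difference of 3.54 ± 0.62 (SE; edgeR adjusted p = 6.14e-05).

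Notch3, a receptor that marks a subset of luminal cells and is also found in mural cells of vessels, had a level of 159 in WT luminal, 248 in KO luminal, 9.48 in Bsecs, 5.31 in the smaller basal and 29.8 in the larger basal column. Both luminal columns were high, the other 3 were low, and Bsecs lay between the basal columns. Notch3 was 10.7-fold higher in luminal than in basal columns (7.57 to 15.5), a log2 difference of 3.50 ± 0.83 (edgeR adjusted p = 0.00277). Without the KO luminal column, whose source label conflicts with its title, the difference was 3.19 and no longer passed (edgeR adjusted p = 0.0615).

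Notch2 had a level of 581 in WT luminal, 1241 in KO luminal, 851 in Bsecs, 1523 in the smaller basal and 788 in the larger basal column. The luminal and basal columns overlapped, with the lowest value in WT luminal and the highest in the smaller basal column. The log2 difference of luminal from basal columns was -0.30 ± 0.52 (edgeR adjusted p = 0.771) and its sign turned when 1 column was left out, to 0.14 without WT luminal and 0.19 without the smaller basal column. Notch4, a receptor best known from endothelium, had 1 read in WT luminal, 3 in KO luminal, 25 in Bsecs, 0 in the smaller basal and 2 in the larger basal column. Only Bsecs was above the 3 reads taken here as the limit that a count of 0 allows.

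Per kilobase of exon, which allows receptors to be set beside each other, Notch2 held the largest share of the summed receptor level in every column. In WT luminal cells Notch2 took 45.7%, Notch1 37.9% and Notch3 16.4% of it, and in KO luminal cells they took 54.9%, 30.6% and 14.4%. In Bsecs the shares were 67.2% for Notch2, 28.5% for Notch1, 3.31% for Notch4 and 0.981% for Notch3. In the basal columns Notch2 took 95.2% and 91.2%, and Notch1 4.41% and 3.94%. The summed receptor level per kilobase was 121 in WT luminal, 215 in KO luminal, 121 in Bsecs, 152 in the smaller basal and 82.3 in the larger basal column, so the populations overlapped in the sum while they differed in its make-up. These shares are descriptions of single columns.

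**Figure D2:**
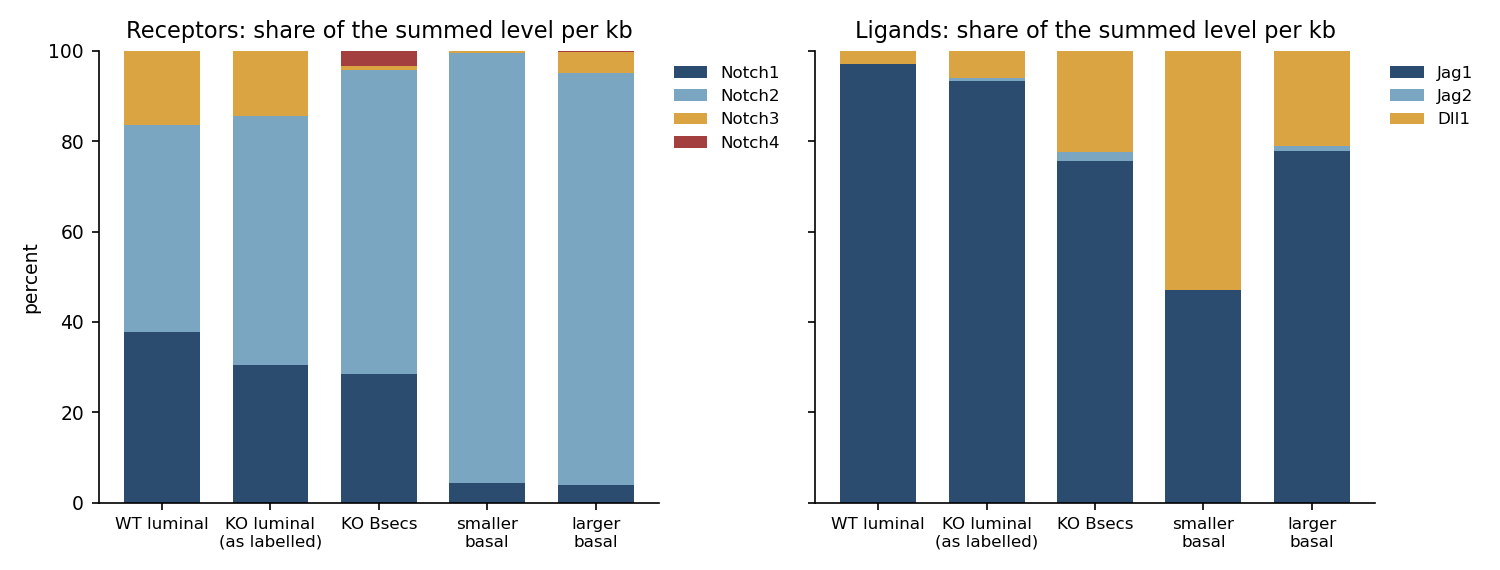
Share of each receptor (left) and each ligand (right) in the summed level per kilobase of its role, in percent, with 1 bar per column. The ligand sum holds Jag1, Jag2 and Dll1 only. Notch2 fills 95.2% and 91.2% of the basal receptor bars, Notch1 and Notch3 are visible in the luminal bars, and Dll1 takes 52.8% of the ligand bar of the smaller basal column.

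The ligands were arranged the other way round, with Jag1 and Dll1 lower in luminal cells. Jag1 had a level of 135 in WT luminal, 224 in KO luminal, 1485 in Bsecs, 1527 in the smaller basal and 1352 in the larger basal column. Bsecs and both basal columns lay close together and the luminal columns were far below them, with no overlap between luminal and basal. Jag1 was 7.74-fold higher in basal than in luminal columns (7.01 to 8.57), a log2 difference of luminal from basal of -2.97 ± 0.55 (edgeR adjusted p = 0.000136).

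Dll1, a Delta ligand known from basal cells of the gland, had a level of 2.68 in WT luminal, 9.40 in KO luminal, 280 in Bsecs, 1094 in the smaller basal and 233 in the larger basal column. The luminal columns held 16 reads between them and the basal columns 1066. Dll1 was 93.0-fold higher in basal than in luminal columns (57.0 to 163), with a log2 difference of -6.66 ± 0.81 (edgeR adjusted p = 1.42e-07). The basal columns did not match each other in Dll1, and Bsecs lay between them on this scale.

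Jag2 was sparse, with 0 reads in WT luminal, 2 in KO luminal, 37 in Bsecs, 3 in the smaller basal and 18 in the larger basal column. Its log2 difference of luminal from basal columns was -3.62 ± 1.84 and was not called (edgeR adjusted p = 0.212). Per kilobase, Jag1 made up 97.0% of the summed level of these 3 ligands in WT luminal and 93.2% in KO luminal. Its share was 75.5% in Bsecs and 77.9% in the larger basal column. In the smaller basal column Dll1 led with 52.8% against 47.0% for Jag1. The summed level of the 3 ligands per kilobase was 24.8 in WT luminal cells and 42.8 in the KO luminal column. It was 351 in Bsecs, 578 in the smaller basal and 309 in the larger basal column. Dll4, a further Delta ligand, was left out of these sums and shares. Its level per kilobase was 9.29 in WT luminal, beside 24.0 for Jag1. In KO luminal it was 0.772, in Bsecs 1.41, in the smaller basal column 0 and in the larger 1.28.

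Of the targets, Hes1 was read in luminal cells and Bsecs and was nearly absent from basal columns. Hes1, a repressor of the bHLH family, had 76 reads in WT luminal, 122 in KO luminal, 61 in Bsecs, 1 in the smaller basal and 0 in the larger basal column. The corresponding levels were 67.8, 88.2, 64.3, 1.33 and 0, where a count of 0 in the larger basal column allows a level of up to 2.88. Over pooled reads Hes1 was 142-fold higher in luminal than in basal columns (25.2 to 5629), a log2 difference of 6.84 ± 1.33 (edgeR adjusted p = 0.0003). The width of that interval comes from the single basal read.

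Hey1, a repressor related to Hes1, had 16 reads in WT luminal, 22 in KO luminal, 4 in Bsecs, 1 in the smaller basal and 5 in the larger basal column. The luminal columns were higher without overlap, but the log2 difference of 2.23 ± 1.92 was not called (edgeR adjusted p = 0.503). Heyl had 4 reads in WT luminal, 1 in KO luminal, 0 in Bsecs, 1 in the smaller basal and 90 in the larger basal column, so that 1 column held nearly all of its reads. The log2 difference of luminal from basal columns was -4.33 ± 1.60 (edgeR adjusted p = 0.0707). It passed without the smaller basal column (-5.32, edgeR adjusted p = 0.00176), on totals without Rn45s (-4.45, 0.0383) and without the filter on low counts (-4.32, 0.0390).

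The column with Heyl also held the most RNA of vessel and stromal markers. All 8 of 8 endothelial markers had a read there, against 5 in the smaller basal column, 3 in each luminal column and 1 in Bsecs. Their summed level was 14.3 in WT luminal, 2.89 in KO luminal, 9.48 in Bsecs, 54.4 in the smaller basal and 248 in the larger basal column. For 6 pericyte markers the sums were 3.57, 18.1, 33.7, 66.4 and 173, and for 6 fibroblast markers 816, 990, 327, 380 and 2123, in the same order. Dcn alone gave 775, 983, 198, 130 and 1297 of the fibroblast sums. Without it the sums were 41.1, 6.51, 129, 250 and 826, lowest in the luminal columns. Heyl, a Hey-type repressor, is known from vessel walls, and the part of these cells in its level was not tested. In Bsecs, where Notch4 had its 25 reads, the endothelial markers Pecam1, Kdr and Tek were at 0 and Cdh5 had 9 reads.

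**Figure D3:**
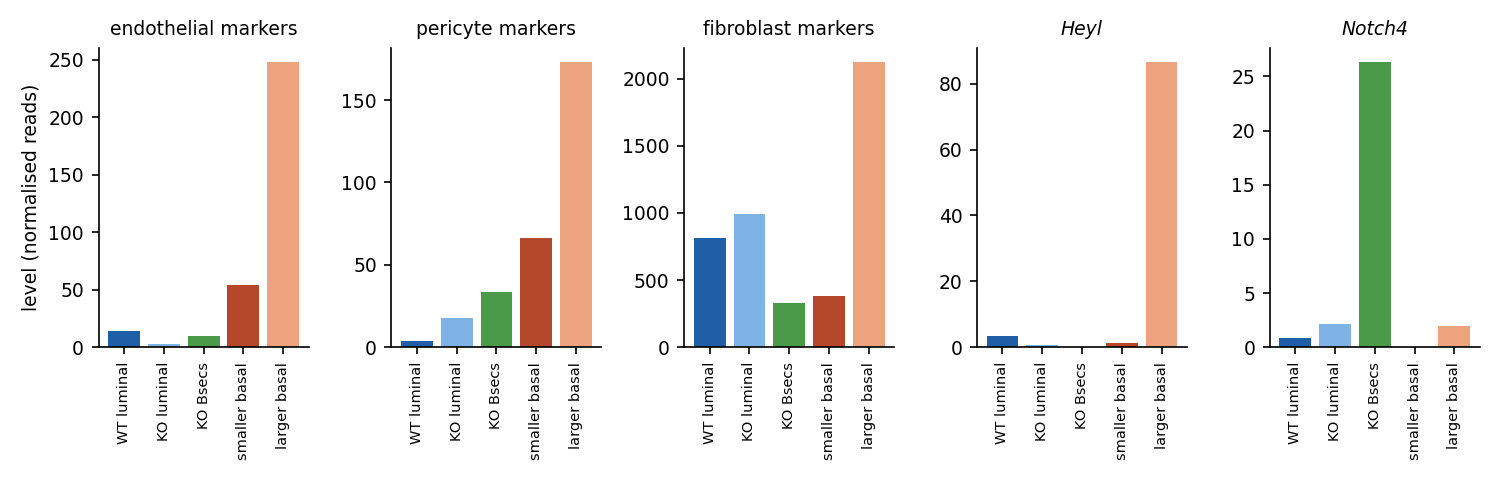
Summed level of 8 endothelial, 6 pericyte and 6 fibroblast markers, and the levels of Heyl and Notch4, with 1 bar per column and separate linear axes from 0. The larger basal column is highest for all 3 marker sums and for Heyl (86.5), and Bsecs is highest for Notch4 (26.3).

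In Bsecs the levels of Jag1 and Dll1 lay between those of the basal columns, while Notch1 and Hes1 lay below both luminal columns. The first placement depended on the scale. On totals without Rn45s Bsecs lay below the smaller and the larger basal column, by log2 -0.25 and -0.22 for Jag1. For Dll1 these differences were -2.17 and -0.08. Against the basal columns 2 members were higher in Bsecs and 0 lower, where 4.38% of genes were called, 2.71% higher and 1.68% lower. Notch1 was 7.30-fold higher (5.69 to 9.45), a log2 difference of 2.85 ± 0.67 (edgeR adjusted p = 0.00594). Hes1 was 115-fold higher (19.9 to 4624), 61 reads against 1, with a log2 difference of 6.58 ± 1.41 (edgeR adjusted p = 0.00239). Jag1 differed from the basal columns by 1.04-fold (0.976 to 1.11), with a log2 difference of 0.09 ± 0.62 (edgeR adjusted p = 0.990) that turned to -0.23 on totals without Rn45s. Dll1 in Bsecs was 0.471 times the pooled basal level (0.410 to 0.540) and was not called (log2 -1.17 ± 0.78, edgeR adjusted p = 0.567). By level it lay between the basal columns, and the sign of the difference turned to 0.26 without the smaller of them.

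Against the luminal columns 2 members were higher and 1 was lower in Bsecs, where 4.79% of genes were called, 2.44% higher and 2.35% lower. Dll1 was 43.8-fold higher (26.5 to 77.8), a log2 difference of 5.49 ± 0.82 (edgeR adjusted p = 3.96e-05). Jag1 was 8.07-fold higher (7.26 to 8.98), a log2 difference of 3.06 ± 0.60 (edgeR adjusted p = 0.00143), and missed the threshold without the WT luminal column (2.75, 0.0568). Notch3 was 22.0-fold lower (11.5 to 48.3), a log2 difference of -4.39 ± 1.18 (edgeR adjusted p = 0.0238), and missed it without the KO luminal column (-4.07, 0.146). Notch1 and Hes1 had log2 differences of -0.69 and -0.27 from the luminal columns that were not called (edgeR adjusted p = 0.650 and 0.943). A difference that was not called does not show equal levels.

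Jag2 and Notch4 were both highest in Bsecs, at 37 and 25 reads, yet neither was called in this fit. The log2 difference of Jag2 was 5.48 from luminal columns (edgeR adjusted p = 0.125) and 1.86 from basal columns (0.735). It passed against luminal columns without the smaller basal column (5.48, edgeR adjusted p = 0.0297). Notch4 over pooled reads stood 16.5-fold above luminal columns (5.69 to 65.2, edgeR adjusted p = 0.423) and 23.6-fold above basal columns (5.89 to 206, edgeR adjusted p = 0.463). Heyl had 0 reads in Bsecs against 91 over the basal columns, at least 16.1-fold lower by the limit of 3 reads, and was not called (log2 -8.55, edgeR adjusted p = 0.147). Without the smaller basal column it passed, at -9.62 (edgeR adjusted p = 0.00961). Those 3 contrasts share columns, so each is given by its own values.

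**Figure D4:**
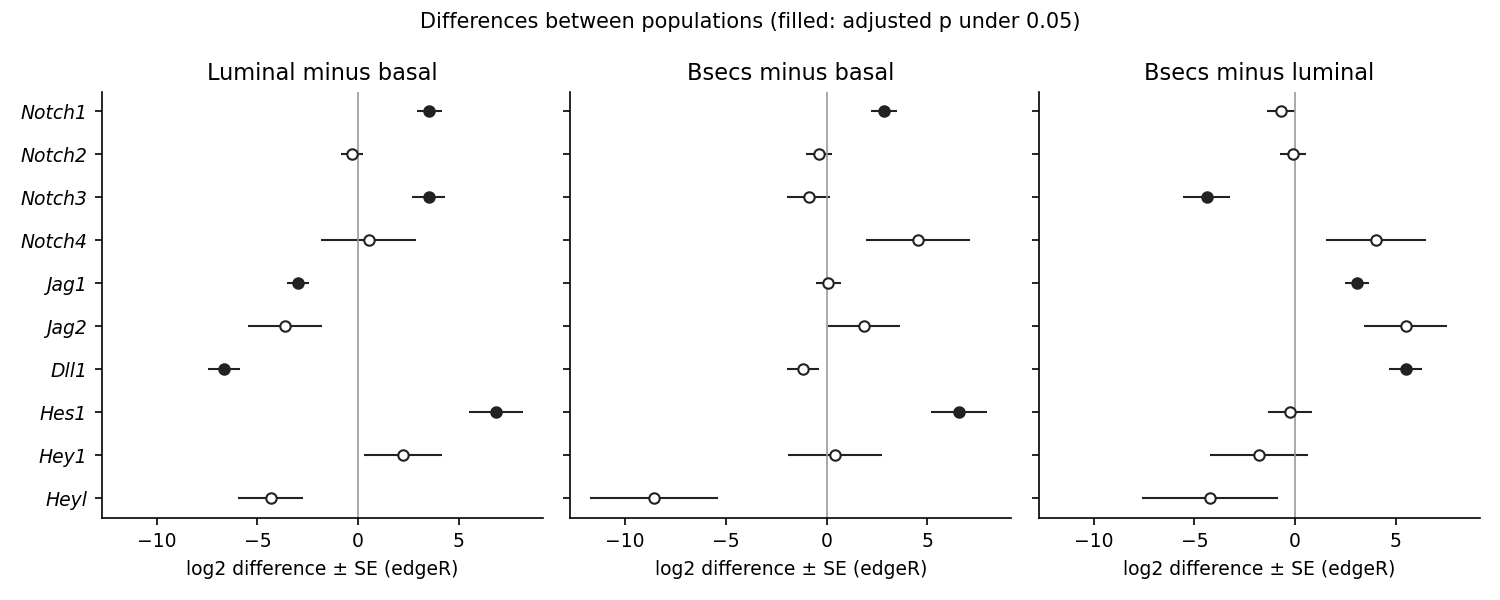
Log2 differences of the 10 members between populations, with the SE as bars, for luminal minus basal, Bsecs minus basal and Bsecs minus luminal columns. Filled points have an edgeR adjusted p under 0.05. Notch1 and Hes1 are filled on the positive side of both panels that end in basal, and Dll1 and Jag1 are filled on the positive side against luminal.

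Between KO and WT luminal columns no member passed, and of the 6 with 20 reads or more none reached 4-fold. The authors' deposited table gave p-values that left 0 of 10 members after Benjamini-Hochberg adjustment, where 0.0882% of 14736 genes were called, and 0 members had an unadjusted p under 0.05, beside 3.74% of genes. By a fold of at least 4 in either direction among genes with 20 reads or more, 0 of 6 members passed, against 11.1% of such genes. Notch2 was 2.10 times as high in KO luminal (1.92 to 2.30), Jag1 1.64 times (1.34 to 2.00), Notch3 1.54 times (1.28 to 1.85) and Notch1 1.41 times (1.26 to 1.58). These 4 intervals lay above 1 by counting error alone, with no replicate behind them. Hes1 was at 1.28 times (0.953 to 1.73), Hey1 at 1.10 (0.550 to 2.23) and Dll1 at 3.45 (0.949 to 18.9), with 13 reads against 3. Heyl had 1 read against 4, a level 5.02-fold lower in KO luminal with an interval of 0.497 to 247. On the recovered reads, edgeR's exact test at an assumed dispersion (0.16) called 0 members and 1.53% of genes. The assumed value is below the common dispersion of 0.346 fitted over the 5 columns, and a lower dispersion gives more calls.

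The basal columns, whose genotype names conflict, differed in more members. Adjusting the authors' deposited table over all genes left 0 of 10 members, against 0.0274% of genes, and 2 had an unadjusted p under 0.05, Dll1 (0.00773) and Heyl (0.00422), beside 3.09% of genes. By size, 4 of 7 members with 20 reads or more were at least 4-fold apart, against 14.8% of genes. Dll1 was 4.77-fold higher in the smaller basal column (4.13 to 5.52). Heyl was 64.3-fold higher in the larger basal column (11.2 to 2567), Notch3 5.54-fold (1.96 to 21.6) and Jag2 4.29-fold (1.25 to 22.7). The marker sums of vessel and stromal cells given above were higher in the same column as Heyl, Notch3 and Jag2, and their part in these folds was not tested. Jag1 differed by 1.15-fold (1.06 to 1.24), Notch1 by 2.10-fold (1.32 to 3.39) and Notch2 by 1.96-fold (1.79 to 2.15), all higher in the smaller column. With the assumed dispersion 1 member, Heyl, was called by edgeR's exact test, against 2.40% of genes.

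Bsecs was also set against each single column. Adjusting the authors' deposited tables likewise left 0 of 10 members in each of the 4 comparisons with Bsecs, where 0.759% of genes were called against the smaller basal column, 0.480% against the larger, 0.0405% against KO luminal and 0.210% against WT luminal. The lowest unadjusted p of a member in the authors' deposited tables was 0.000466, for Dll1 against WT luminal. At 4-fold or more, Bsecs differed in 4 of 7 members from the smaller basal column (22.8% of genes), in 4 of 9 from the larger (21.6%), in 5 of 9 from KO luminal (24.9%) and in 5 of 9 from WT luminal (26.8%). Against either luminal column these were Notch4, Jag1, Jag2 and Dll1, higher in Bsecs, and Notch3, lower. Against both basal columns Notch1, Notch4 and Hes1 were higher, and Notch1 stood 5.07-fold above the smaller (3.73 to 7.02) and 10.6-fold above the larger basal column (7.37 to 15.8). With the assumed dispersion edgeR's exact test called 2 members against the smaller basal column (10.2% of genes), 3 against the larger (8.52%), 5 against KO luminal (11.1%) and 5 against WT luminal (13.8%). An exact binomial test, which covers counting error alone, called 6, 7, 8 and 7 members in these 4 comparisons. It called 52.2%, 50.7%, 56.1% and 57.6% of all genes with a read there. Between the luminal columns it called 4 members and 48.7% of genes, and between the basal columns 7 members and 45.9%.

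A list of 53 other genes of the pathway was followed by role, of which 45 were tested. Between luminal and basal columns 2 were called higher and 2 lower, beside 12.9% of all genes tested, and 12 had an unadjusted p under 0.05 (edgeR), beside 25.6% of all genes. The median log2 difference of the list was 0.16, beside 0.08 over all genes tested. The call that bears on receptor cleavage was Adam10, the protease that makes the first cut, with 785 reads in WT luminal, 1279 in KO luminal, 159 in Bsecs, 54 in the smaller basal and 113 in the larger basal column. Its levels in both luminal columns were far above the other 3, and the log2 difference from basal columns was 3.19 ± 0.58 (edgeR adjusted p = 0.000113). Adam17, the other ADAM protease of the list, differed by 0.05 (edgeR adjusted p = 0.971).

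Dtx4, a Deltex ubiquitin ligase that acts on Notch traffic, had 185, 461, 53, 14 and 11 reads in WT luminal, KO luminal, Bsecs, smaller and larger basal columns. It was higher in luminal columns by 4.14 ± 0.76 on the log2 scale (edgeR adjusted p = 0.000148). Numbl, a relative of the Notch inhibitor Numb, had 4, 2, 5, 47 and 34 reads in that order and was lower in luminal columns (-4.16 ± 1.39, edgeR adjusted p = 0.0423). Numb itself had a log2 difference of 0.53 that was not called (edgeR adjusted p = 0.613). Myc, a growth regulator that Notch can turn on, was lower in luminal columns (-1.96 ± 0.55, edgeR adjusted p = 0.0137), with 608, 1721, 976, 3897 and 2065 reads. The Numbl call was lost without WT luminal, KO luminal or the smaller basal column (edgeR adjusted p = 0.184, 0.317 and 0.211). The Myc call was lost without WT luminal (-1.48, edgeR adjusted p = 0.285) and without the smaller basal column (-1.17, 0.211).

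Other roles held no call between luminal and basal columns. In gamma-secretase, the protease of the second cut, 0 of 6 tested genes passed. The catalytic subunit Psen2 had 79, 131, 10, 0 and 20 reads and a log2 difference of 3.03 (edgeR adjusted p = 0.0698). The subunit Ncstn was at 1.66 (edgeR adjusted p = 0.0546). Among 8 nuclear activators Rbpj, the DNA-binding partner of Notch, had 19, 51, 37, 113 and 96 reads and a difference of -2.12 (edgeR adjusted p = 0.0828), and the coactivator Maml3 one of 1.76 (0.0867). Of the receptor-modifying enzymes Poglut1 was at -1.70 (edgeR adjusted p = 0.0789), and of the ligand-trafficking ligases Mib1 was at -1.69 (0.116). Several of these passed under other settings. Psen2 did so in 4 of 11 alternatives, among them without the larger basal column (log2 9.45). The remaining basal column held 0 Psen2 reads, so the size of that value is not a measured fold. Ncstn passed in 3 of 11 (adjusted p 0.0223 to 0.0498, from edgeR or the DESeq2 Wald test). Rbpj passed in 2 of 11, with genotype as a term and the smaller basal column as KO (-2.24, edgeR adjusted p = 0.0345) and without the larger basal column (-2.40, 0.0386). Poglut1 passed with the same genotype term (-1.85, edgeR adjusted p = 0.0151) and without the smaller basal column (-2.03, 0.0276). Without the smaller basal column Mib1 passed as well (-2.23, edgeR adjusted p = 0.0204). The ligand Dll4 had 39 reads in WT luminal and at most 5 in every other column, while Dll3 and the target Hes5 had 0 reads in all 5.

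**Figure D5:**
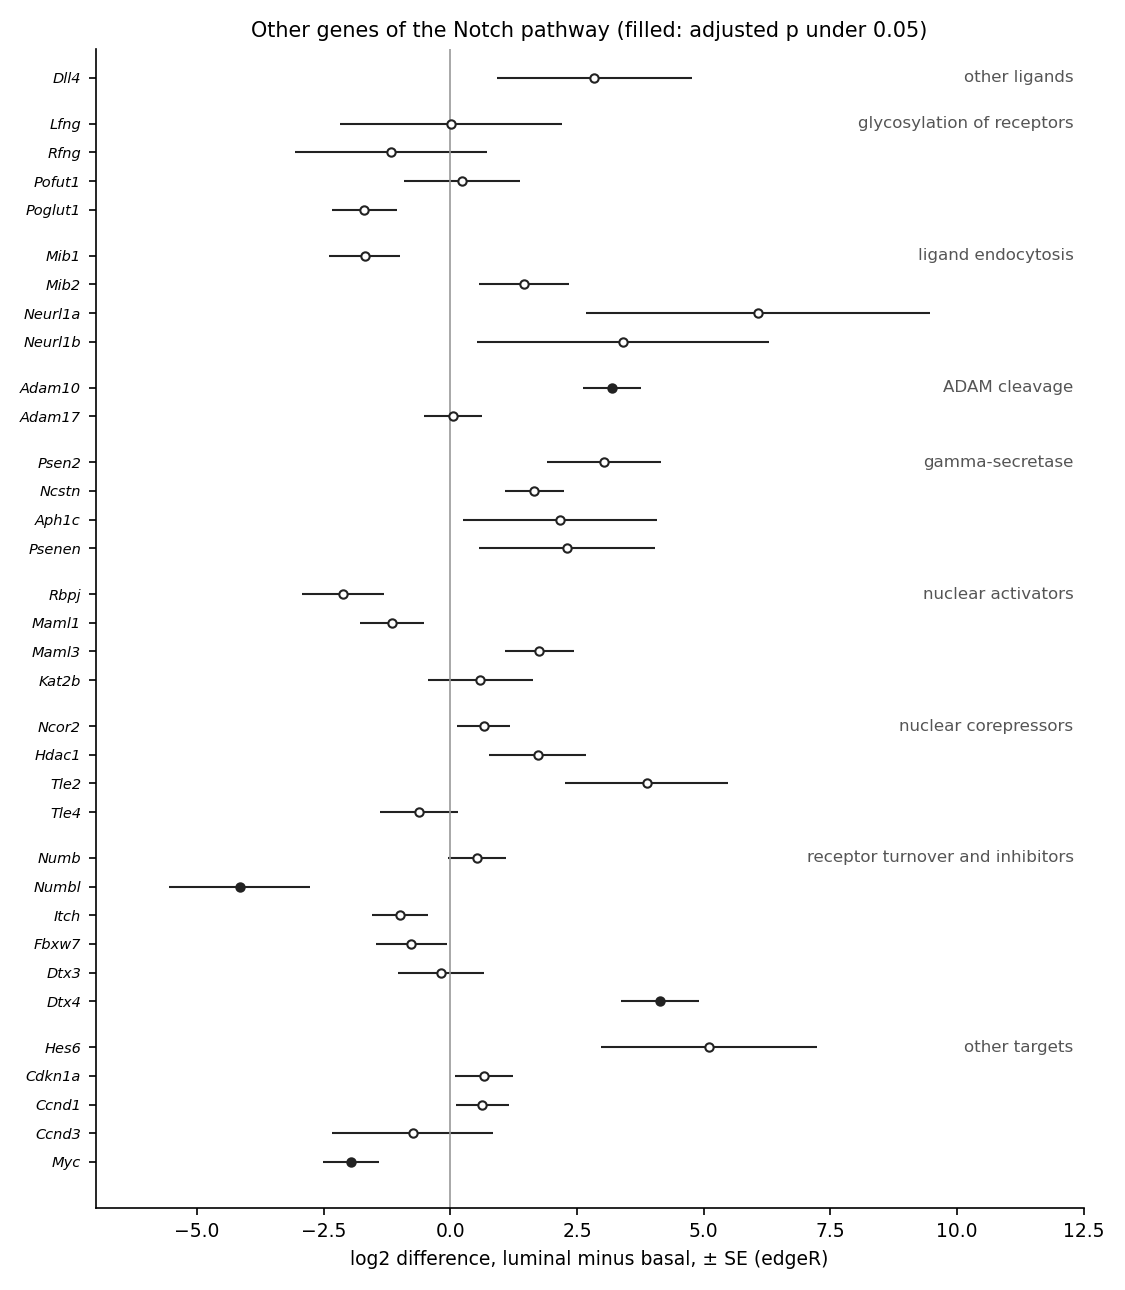
Log2 differences of luminal minus basal columns for 34 of the 45 tested genes of the wider pathway list, grouped by role (those called and, per role, up to 4 others with the largest absolute difference), with the SE as bars. Filled points have an edgeR adjusted p under 0.05, and they are Adam10 and Dtx4 on the positive side and Numbl and Myc on the negative side.

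In Bsecs a single gene of the wider list was called, Cdkn1a, the cyclin-dependent kinase inhibitor p21, which Notch can turn on in keratinocytes. Its level was 615 in WT luminal, 1316 in KO luminal, 4816 in Bsecs, 1050 in the smaller basal and 221 in the larger basal column. Bsecs stood above all 4 other columns. The log2 difference was 2.99 ± 0.67 from basal columns (edgeR adjusted p = 0.00396) and 2.33 ± 0.67 from luminal columns (0.0336), and the latter was lost without WT luminal (1.89, 0.319). The list's median log2 difference was -0.13 from basal columns, beside -0.08 over all genes, and -0.50 from luminal columns, beside -0.20. Adam10 in Bsecs lay nearer to basal columns, with a difference of -2.26 from luminal columns that was not called (edgeR adjusted p = 0.0679).

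The genes most like a member were sought for the receptor, ligand and target with the widest range over the 5 columns, among 6303 genes, by the Euclidean distance between centred profiles of log2 of the level plus 1. For Notch3 they were Cldn1 (distance 0.949), Mtmr7 (1.02) and Chrnb1 (1.09), beside a range of 5.30 for Notch3 itself. Cldn1, a tight junction protein, had levels of 889 in WT luminal, 951 in KO luminal, 28.4 in Bsecs, 19.9 in the smaller basal and 71.2 in the larger basal column. For Dll1, with a range of 8.22, they were Scube3 (1.27), Chst11 (1.42) and Pcdh18 (1.60). For Hes1, with a range of 6.48, they were Tnf (0.786), Edn1 (0.928) and Gipc2 (0.935), and Tnf, a cytokine, had levels of 516, 565, 388, 25.2 and 8.65 in the order of the plot of levels. With 5 columns and so many candidates such likeness is a description.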

How the data were processed

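RNA was extracted with TRIzol, amplified with the Ovation RNA-seq V2 kit and made into Ovation ultralow libraries, per the labels' protocols. STAR, DESeq and build mm9 are named in the submitters' processing notes, and no version, read counter, annotation or strand setting was given in the labels available here. The 6 tables the authors deposited hold 24000 genes each, with the mean signal of each group (normalised counts, per the file headers) and a p-value. Means were whole multiples of 1 step per column (100% of values within 0.01), so reads were recovered and followed across tables as 5 columns, and 0 other per-sample columns were found.

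Populations were tested on recovered counts with edgeR 4.0.16 in R 4.3.3 (quasi-likelihood, TMM, filterByExpr), with DESeq2 1.42.0, other scales, no filter, other column sets and left-out columns as alternatives. The members and lists were chosen with earlier results of these data known. Pairs of single columns used the authors' deposited p-values, adjusted by Benjamini-Hochberg, folds with exact binomial intervals, and a bound of 3 reads against 0. edgeR's exact test on recovered reads, at an assumed dispersion (0.16), called 226 genes between luminal columns, 350 between basal columns, and 1403, 1276, 1649 and 1975 for Bsecs against the smaller basal, larger basal, KO luminal and WT luminal column. PCR reads are not independent molecules, so intervals and bounds cover counting error only. The fit was tested on counts simulated for luminal against basal columns (11383 genes), at the assumed dispersion (0.16). It called 38% of 100 genes changed 4-fold and 100% of 100 changed 16-fold, with 6 false calls. The common dispersion fitted to the real columns was higher, at 0.346, and genes with few expected reads were not among those changed. These figures therefore do not give the power or the false calls of the real fit, nor of sparse genes such as Hes1 in basal columns. Exon lengths came from GENCODE M21 on GRCm38 and promoters of 7 members from RefSeq, and GGGCGG was searched after the windows had been seen. The pathway genes named were those called in a contrast and, per role, up to 4 with the largest luminal to basal difference. Dll3, Hes5 and, in the closing section, further list genes were named after their values were seen.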

Additional observations from a re-analysis of the deposited data

How the results depend on the processing

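Notch1, Jag1, Dll1 and Hes1 stayed past the threshold between luminal and basal columns in 11 of 11 alternatives, and Notch1 and Hes1 did so between Bsecs and basal columns in 8 of 8. Over the alternatives the log2 difference of luminal from basal columns ran from 3.12 to 4.08 for Notch1 and from 2.75 to 5.29 for Notch3. It ran from -3.38 to -2.66 for Jag1, from -7.86 to -5.23 for Dll1 and from 5.82 to 9.45 for Hes1. The 9.45 came without the smaller basal column, where the remaining basal column held 0 Hes1 reads. The size of that value is therefore not a measured fold. In the main fit the wider list had 4 calls between luminal and basal columns, where 12.9% of all genes were called. It had 1 for Bsecs against basal (4.38% of genes) and 1 for Bsecs against luminal columns (4.79%). With genotype as a term and the smaller basal column as KO the wider list had 8 calls between luminal and basal columns. In that setting 1926 of 10408 genes tested were called, and Psen2, Ncstn, Rbpj and Poglut1 were the list genes added. Against basal columns it had 2 with median-of-ratios factors, on totals without Rn45s, without a filter and with DESeq2 (Maml2, lower, was added). Against luminal columns it had 3 on totals without Rn45s and with DESeq2 (Adam10 and Maml2, lower, were added). The cause was not tested.

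Some differences that were not called changed sign when a column was left out. Those of Notch2 ran from -0.96 to 0.19 between luminal and basal, from -0.75 to 0.11 for Bsecs against basal and from -0.52 to 0.52 for Bsecs against luminal columns. Notch4 ran from -0.30 to 3.82 between luminal and basal columns. For Bsecs against basal columns Notch3 ran from -1.64 to 0.91, Dll1 from -1.88 to 0.26 and Hey1 from -0.19 to 1.66, and Jag1 turned to -0.23 on totals without Rn45s. That scale moved the median of all genes by -0.32 for Bsecs against basal, -0.22 against luminal and -0.10 for luminal against basal columns. It gave 283 genes higher and 323 lower for Bsecs against basal columns, where TMM gave 332 and 206, and DESeq2 299 and 313. Against luminal columns it gave 270 and 419, where TMM gave 299 and 289 and DESeq2 298 and 428. The 588 genes called for Bsecs against luminal columns became 259 without WT luminal and 1202 or 1193 without the smaller or the larger basal column.

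For pairs of single columns, where 0 members were called, edgeR's exact test at an assumed dispersion (0.16) called 0 between luminal columns, 1 between basal columns (Heyl), 2 for Bsecs against the smaller basal (Notch4, Hes1), 3 against the larger basal (Notch1, Hes1, Heyl) and 5 against KO luminal and 5 against WT luminal (Notch3, Notch4, Jag1, Jag2, Dll1). Counting error alone (exact binomial) called 4, 7, 6, 7, 8 and 7 in that order, and 45.9% to 57.6% of all genes. With no minimum of reads 1 member, Heyl, was 4-fold apart between luminal columns, at 1 read against 4. No paired analysis was possible because the columns carry no replicate number and each group has 1 column. Depth limited Notch4, Jag2, Hey1 and Heyl, which had under 40 reads in every column but 1 column of Heyl.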
